A study of Mus musculus with 6 samples.

Results

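The MHC class II genes described here are Cd74, H2-Aa, H2-Ab1, H2-Eb1, H2-DMa, H2-DMb1 and Ciita. They were taken by name from the deposited table of expression values, and all 7 of them are among its 24205 genes. The cells were granulocyte-monocyte progenitors (GMP), the bone marrow cells that give rise to neutrophils and monocytes, sorted from C57BL/6 mice into extraction buffer and profiled by bulk RNA sequencing. Of the 6 libraries, 3 came from sham-treated mice and 3 from mice with hindlimb ischemia, a procedure that cuts blood flow to a leg. The sources used here give no age, no time after the procedure, no sort gate and no statement that each library is a separate animal. The p-values therefore measure the spread between these libraries, which may be technical in part. In a sorted bulk sample, fewer cells of a type and less RNA per cell cannot be told apart.

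MHC class II molecules show peptides from the endosome to CD4 T cells and are made mainly by dendritic cells, B cells and macrophages. H2-Aa and H2-Ab1 encode the alpha and beta chains of the I-A molecule, and H2-Eb1 encodes the beta chain of I-E. C57BL/6 mice carry a defective gene for the I-E alpha chain, so they display no I-E at the cell surface. Cd74 encodes the invariant chain, which fills the peptide groove until H2-DM, the product of H2-DMa and H2-DMb1, exchanges its remnant for peptide. Ciita encodes the transactivator that turns these genes on. It binds no DNA itself and is recruited by a complex of RFX, CREB and NF-Y proteins on the X and Y boxes of the promoters.

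The promoter segments are shown because those boxes are the sites at which CIITA is recruited. The RefSeq promoter windows on GRCm38.p6 span 250 bases before to 50 bases after each annotated start. Windows were matched for 4 of the 7 members, H2-Aa, H2-Eb1, H2-DMa and H2-DMb1. Sequences of Cd74, H2-Ab1 and Ciita are not shown. Windows of close family genes stand beside them: H2-DMb2 encodes another H2-DM beta chain, H2-Oa and H2-Ob encode the H2-O molecule that inhibits H2-DM, and H2-Eb2 encodes another E-type beta chain. In each line the sequence runs 5′ to 3′ on the gene's own strand. Capitals mark a core of the X box (A, any 2 bases, AAC, any 2 bases, ATG) and GATTGG, the Y box core on the gene's strand.
H2-DMb1, chr17:34153091-34153142, plus strand: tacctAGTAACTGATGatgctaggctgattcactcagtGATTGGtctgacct
H2-DMb2, chr17:34145120-34145171, plus strand: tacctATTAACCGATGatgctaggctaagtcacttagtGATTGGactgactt
H2-Eb1, chr17:34305770-34305820, plus strand: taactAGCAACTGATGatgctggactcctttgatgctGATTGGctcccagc
H2-Eb2, chr17:34325537-34325587, plus strand: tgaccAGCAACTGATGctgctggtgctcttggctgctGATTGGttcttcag
H2-Ob, chr17:34238812-34238860, plus strand: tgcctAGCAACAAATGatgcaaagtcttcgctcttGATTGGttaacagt
H2-Aa, chr17:34287859-34287913, minus strand: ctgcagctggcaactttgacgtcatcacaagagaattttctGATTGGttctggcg
H2-Oa, chr17:34092294-34092348, plus strand: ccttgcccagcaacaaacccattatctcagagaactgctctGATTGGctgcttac

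In H2-DMb1, H2-DMb2, H2-Eb1, H2-Eb2 and H2-Ob the X core preceded the Y core with a gap of 22, 22, 21, 21 and 19 bases. H2-Aa and H2-Oa held the Y core but not this X core. H2-DMa had 2 windows at different annotated starts, neither of which held the X core, and 1 held a Y core. Both cores were searched on both strands, and with a gap of 10 to 30 bases they cannot overlap. Over all 32851 windows, the X core was in 887 (2.70%) and the Y core in 5292 (16.1%). Both cores in this order with this gap were in 8 windows (0.0244%), of which 5 are the ones above. The motif letters were chosen with these sequences in view, so the count is a description.

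The 7 genes lay at very different levels in these progenitors, from over 100 to under 1 TPM, a unit that divides reads by gene length and scales each library to 1000000 transcripts. H2-DMa was highest at 119 TPM over the 6 libraries, followed by H2-DMb1 at 63.5, H2-Ab1 at 18.9, Cd74 at 8.23, H2-Aa at 2.11, H2-Eb1 at 1.03 and Ciita at 0.111 TPM. This order held in each of the 6 libraries. Neighbours in the order had ranges that did not overlap, except H2-Aa and H2-Eb1. For scale, the median gene that passed the expression filter had 16.4 TPM.

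**Figure D1:**
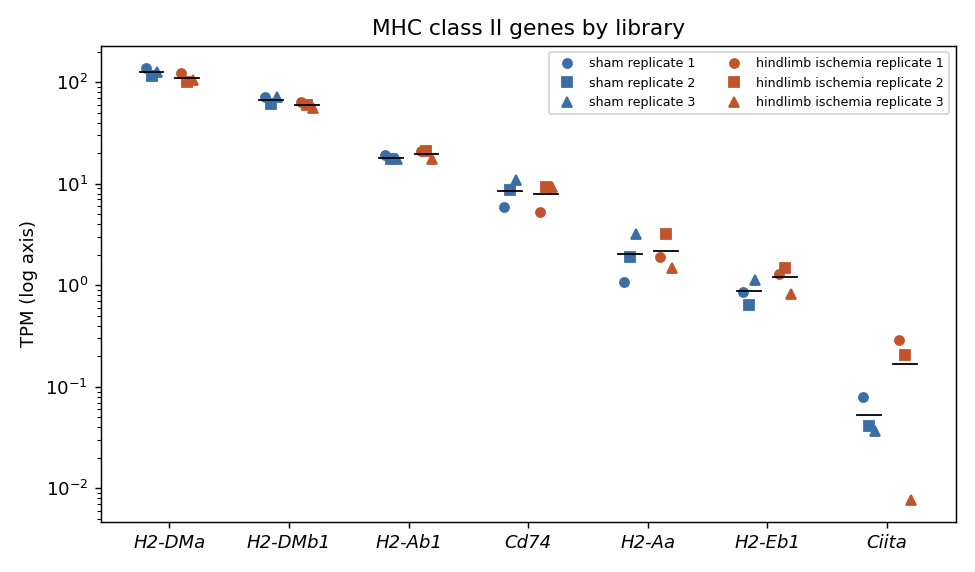
TPM of each MHC class II gene in each library on a log axis, with sham in blue and hindlimb ischemia in orange, a symbol for each replicate number and a black line at each group mean (n = 3). H2-DMa lies above 100 TPM in every library and Ciita below 0.3 TPM, and the points of the 2 groups overlap for every gene.

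H2-DMa (ENSMUSG00000037649, GRCm38 chromosome 17, 34119541 to 34139101), the alpha chain of the peptide exchange factor, had 139, 116 and 126 TPM in sham replicates 1 to 3. In the hindlimb ischemia replicates it had 124, 101 and 105 TPM. Replicate 1 was the highest library of each group, and the groups overlapped. The means were 127 ± 11.6 and 110 ± 12.3 TPM (SD, n = 3 each), from 3361 to 4274 reads. Its log2 fold change was -0.20 (SE 0.14, 95% interval -0.51 to 0.10) on the log2(TPM + 1) scale. With limma-trend and Benjamini-Hochberg adjustment over all genes tested, the adjusted p was 0.874. An exon of the GENCODE M21 model of H2-DMa overlaps Brd2 on the other strand, and 8.43% of the 50-base stretches of the M21 transcripts of H2-DMa also occur in Brd2. The deposited values were whole reads at a length of 1641 bases and not at the M21 length of 3448, so the share in the authors' gene model is not known. Brd2 had 57.0 TPM over the libraries, with 76.1, 55.3 and 59.7 in sham and 62.5, 46.0 and 42.3 TPM after hindlimb ischemia. Replicate 1 was its highest library in each group, as for H2-DMa. Whether reads were counted by strand is not given in the sources used here, so reads of the 2 genes may not be told apart there. The part of Brd2 reads in the H2-DMa values was not tested.

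H2-DMb1 (ENSMUSG00000079547, chromosome 17, 34153072 to 34160230), the partner beta chain, had 70.7, 60.5 and 70.8 in the sham libraries and 63.5, 59.8 and 55.8 TPM after hindlimb ischemia. Its group means were 67.3 ± 5.96 and 59.7 ± 3.85 TPM (SD, n = 3 each). Sham replicate 2 lay among the hindlimb ischemia libraries, so the groups overlapped. The log2 fold change was -0.17 (SE 0.14, 95% interval -0.47 to 0.13), with a limma-trend adjusted p of 0.874. The alpha chain gene stood at 1.70 to 1.97 times the beta chain gene in every library. H2-DMb1 shared 22.7% of its 50-base stretches with its paralog H2-DMb2, so the split of reads between the copies is uncertain. H2-DMb2 had 22.0 ± 2.21 in the sham libraries and 20.4 ± 2.46 TPM after hindlimb ischemia. H2-DMb1 was 2.74 to 3.18 times as high in each library.

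H2-Ab1 (ENSMUSG00000073421, chromosome 17, 34257689 to 34269419), the I-A beta chain, had 19.0, 17.6 and 17.3 TPM in the sham libraries. The hindlimb ischemia libraries had 21.0, 20.8 and 17.5 TPM. Replicate 3 of that group lay within the sham range. Its means of 18.0 ± 0.891 and 19.8 ± 1.99 TPM rested on 526 to 709 reads per library. The log2 fold change was 0.13 (SE 0.15, 95% interval -0.21 to 0.46), with a limma-trend adjusted p of 0.877.

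H2-Aa (ENSMUSG00000036594, chromosome 17, 34282744 to 34287823), the I-A alpha chain that pairs with the product of H2-Ab1, was much lower, with 34 to 122 reads per library. It had 1.07, 1.89 and 3.18 in the sham libraries and 1.88, 3.17 and 1.46 TPM after hindlimb ischemia. The sham libraries alone spanned the whole range of the 6 values. Its log2 fold change was 0.08 (SE 0.27, 95% interval -0.51 to 0.68), with a limma-trend adjusted p of 0.947. H2-Ab1 stood above H2-Aa by 5.46 to 17.7 times, depending on the library. Both genes are given per length, but the length behind each value is that of the authors' gene model.

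H2-Eb1 (ENSMUSG00000060586, chromosome 17, 34305867 to 34316674), the I-E beta chain, was near 1 TPM, from 14 to 35 reads per library. Its values were 0.854, 0.647 and 1.12 in the sham libraries and 1.30, 1.47 and 0.823 TPM after hindlimb ischemia. It reached 1 TPM in exactly 3 libraries, 2 of them from the hindlimb ischemia group, so it passed the filter at its limit. The log2 fold change was 0.23 (SE 0.19, 95% interval -0.20 to 0.65), with a limma-trend adjusted p of 0.874. Values near 1 TPM have smaller fold changes on the log2(TPM + 1) scale than the ratio of their means, which was 1.37 here.

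Cd74 (ENSMUSG00000024610, chromosome 18, 60803848 to 60812652), the invariant chain and an abundant transcript of antigen-presenting cells, had 5.87, 8.73 and 10.9 TPM in sham. After hindlimb ischemia it had 5.29, 9.34 and 9.31 TPM. Replicate 1 was the lowest library of both groups, the reverse of H2-DMa. The means were 8.49 ± 2.50 and 7.98 ± 2.33 TPM (SD, n = 3 each), from 127 to 325 reads. The log2 fold change was -0.08 (SE 0.25, 95% interval -0.62 to 0.46), with a limma-trend adjusted p of 0.942. Its sign turned with division by median-of-ratios size factors (0.02) and with quantile normalization (0.02). H2-DMa exceeded Cd74 by 10.9 to 23.7 times across the libraries.

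Ciita (ENSMUSG00000022504, chromosome 16, 10480059 to 10528418), the transactivator, was under 0.3 TPM everywhere and did not pass the filter. Its sham libraries held 7, 4 and 4 reads, or 0.0788, 0.0415 and 0.0371 TPM. The hindlimb ischemia libraries held 26, 22 and 1 reads, or 0.291, 0.207 and 0.00768 TPM. Replicates 1 and 2 of hindlimb ischemia lay above all sham libraries and replicate 3 below them, so the groups overlapped. Exact Poisson 95% intervals, which cover counting error only, ran from 17.0 to 38.1 reads for replicate 1, from 13.8 to 33.3 for replicate 2 and from 0.0253 to 5.57 for replicate 3. The interval of replicate 3 did not overlap those of replicates 1 and 2. Ciita shares 1.46% of its 50-base stretches with Dexi on the other strand, and Dexi was at 4.58 TPM.

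**Figure D2:**
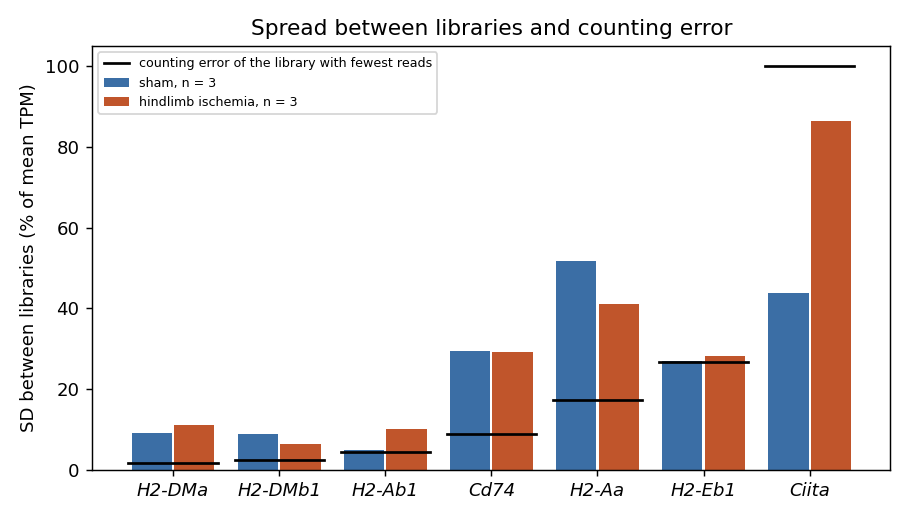
SD between the 3 libraries of each group as a percent of the mean TPM, with a black line at the counting error (1 over the square root of the reads) of the library with the fewest reads. H2-DMa, H2-DMb1, H2-Ab1, Cd74 and H2-Aa exceed that line in both groups, while H2-Eb1 lies close to it and Ciita below it, where the line is set by the library with 1 read.

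The members also differed in how much they varied between libraries. The SD was 9.14% of the mean in sham and 11.1% after hindlimb ischemia for H2-DMa, where counting error alone gives at most 1.72%. For H2-Ab1 it was 4.95% and 10.1%, with at most 4.36% from counting. For Cd74 it was 29.5% and 29.2%, with at most 8.87% from counting. For H2-Aa it was 51.8% and 40.9%, with at most 17.1% from counting. H2-Eb1, at 27.0% and 28.1%, stood near its counting error of up to 26.7%.

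Of the 6 members tested, 0 were past an adjusted p of 0.05 with limma-trend, and 0 were under 0.05 unadjusted. Among all 13787 genes tested, 0 (0.0%) were past the adjusted threshold and 537 (3.89%) were under 0.05 unadjusted, 0.943% higher and 2.95% lower after hindlimb ischemia. That balance depended on the scaling: 130 were higher and 407 lower here, 336 and 364 with size factors, and 302 and 408 with quantile normalization. The groups did not overlap for 0 of the 6 members, against 1149 genes (8.33%) of all tested. With members so few, a count of 0 is near these backgrounds. Lower means on the log scale were found for 3 members and higher means for 3 (2 and 4 with size factors or quantile normalization), with a median log2 fold change of 0.00051, against a median of -0.09 and 69.1% negative values over all genes. Median-of-ratios size factors moved the all-gene median by 0.11, to 0.02. Relative to the all-gene median, the fold changes were -0.12 for H2-DMa, -0.08 for H2-DMb1, 0.01 for Cd74, 0.17 for H2-Aa, 0.22 for H2-Ab1 and 0.32 for H2-Eb1. This subtraction is too large for the lowest genes, because scaling moves low values less on the log2(TPM + 1) scale. With size factors the fold change was 0.15 for H2-Aa and 0.28 for H2-Eb1. The authors' deposited table, turned to hindlimb ischemia over sham, gave log2 fold changes from -0.08 for H2-DMa to 0.20 for H2-Ab1. The adjusted p in the authors' deposited table was 0.937 for H2-Ab1, the lowest of the 7, and 0.994 for Cd74, the highest. Of 15747 genes with an adjusted p in the authors' deposited table, 12 (0.0762%) were under 0.05.

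**Figure D3:**
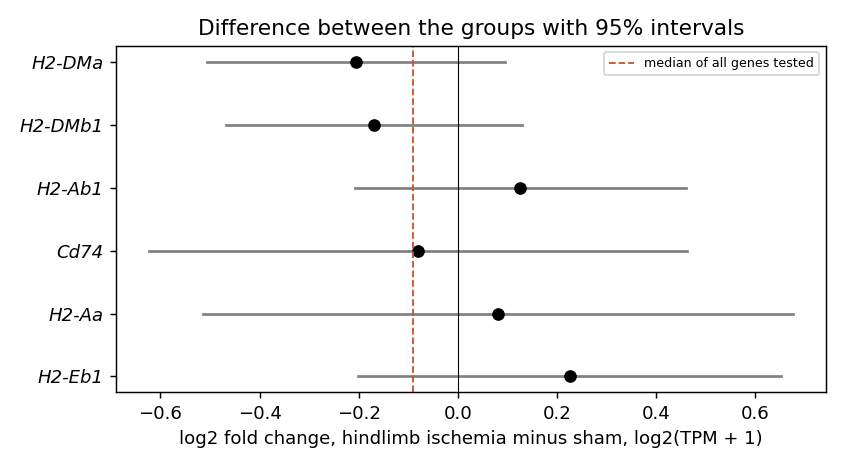
Log2 fold change of hindlimb ischemia minus sham for the 6 members tested (points) with 95% intervals from limma-trend (grey lines), on the log2(TPM + 1) scale. Every interval spans 0, and the dashed line marks the median of all genes tested at -0.09.

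Ratios within a library were compared for all 15 pairs of the 6 tested members. In 2 pairs the groups did not overlap. H2-Ab1 stood at 0.136, 0.152 and 0.138 of H2-DMa in sham and at 0.169, 0.205 and 0.166 after hindlimb ischemia. It stood at 0.269, 0.292 and 0.245 of H2-DMb1 in sham and at 0.331, 0.348 and 0.313 after hindlimb ischemia. Such a shift against H2-Ab1 was common: for 28.9% of all other tested genes the ratio to H2-Ab1 was lower in every hindlimb ischemia library than in every sham library, and for 0.406% it was higher. The 2 H2-DM genes are therefore not shown to differ from other genes in this ratio. With 3 libraries against 3, an exact two-sided permutation test cannot go below 0.1.

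None of the other class II genes reached the level of H2-DMb1. H2-Oa, the alpha chain of the H2-DM inhibitor, had 8.46, 6.92 and 7.05 in the sham libraries and 6.71, 6.37 and 5.04 TPM after hindlimb ischemia. Its groups did not overlap, in the direction taken by 6.68% of all genes tested. The log2 fold change of H2-Oa was -0.27 (SE 0.17, limma-trend adjusted p 0.874). H2-Ob had 4.67 ± 0.830 and 4.95 ± 1.11 TPM. H2-Eb2 rested on at most 2 reads in any library. H2-DMb2 had a log2 fold change of -0.11, which was 0.003 with size factors and 0.007 with quantile normalization.

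**Figure D4:**
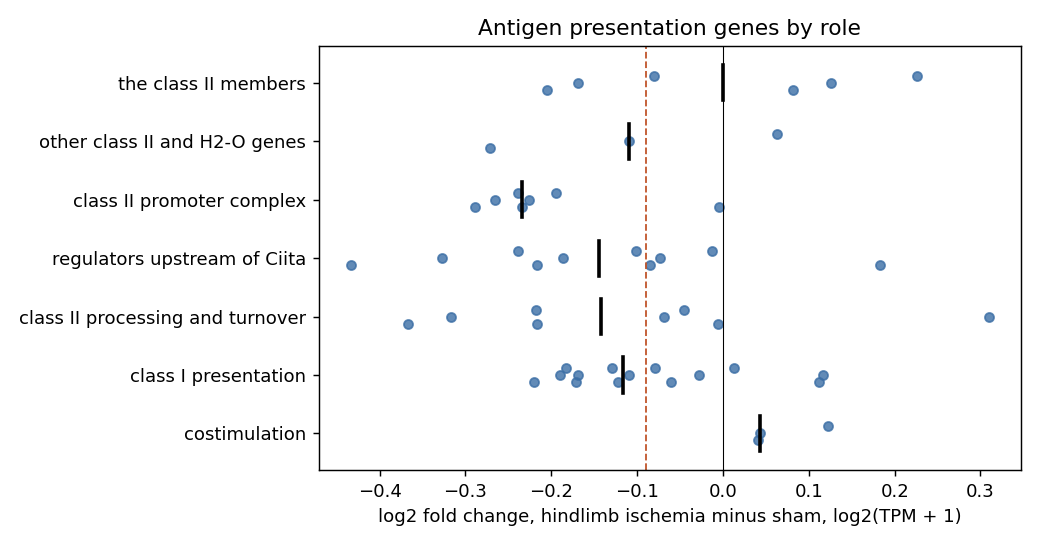
Log2 fold change of each tested gene, hindlimb ischemia minus sham on the log2(TPM + 1) scale, grouped by role in antigen presentation, with a black bar at each list's median and a dashed line at the all-gene median of -0.09. All 7 promoter complex genes lie below 0 (6 with size factors or quantile normalization), and single genes range from -0.43 to 0.31.

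The genes of the RFX, CREB and NF-Y complex passed the expression filter, which Ciita itself did not. All 7 genes of the promoter complex were tested, 0 were past the adjusted threshold and 0 under 0.05 unadjusted by limma-trend, and all 7 had negative log2 fold changes (6 of 7 with size factors or quantile normalization) with a median of -0.23. Of all genes tested, 69.1% were negative, 46.4% with size factors and 52.7% with quantile normalization. For 3 of them the hindlimb ischemia values lay below the sham values, where 6.68% of all genes tested did so. Rfxap, a subunit of RFX, had 22.3, 21.2 and 22.9 in the sham libraries and 18.3, 19.0 and 19.0 TPM after hindlimb ischemia (log2 fold change -0.23, SE 0.14). Nfya, the DNA-binding subunit of NF-Y, had 4.77 ± 0.821 and 3.70 ± 0.357 TPM (log2 fold change -0.29). Rfxank was the other one, with 5.44 ± 0.588 and 4.45 ± 0.457 TPM. Nfyc was the most abundant of the complex, with 45.3 ± 3.89 and 39.0 ± 9.37 TPM.

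Of 11 genes that act upstream of Ciita, 10 were tested and 0 passed the adjusted threshold. Irf1, an interferon-induced activator of the Ciita promoter, had 34.0, 28.6 and 28.6 in the sham libraries and 27.0, 21.1 and 19.2 TPM after hindlimb ischemia. Its groups did not overlap, in the direction taken by 6.68% of all genes tested. The log2 fold change of Irf1 was -0.43 (SE 0.17, unadjusted p 0.0257 and adjusted p 0.874 by limma-trend). It was the 1 gene of the list under 0.05 unadjusted, where 2.95% of all genes tested were so in that direction on this scaling. Usf1, a factor of a Ciita promoter, had 48.2 ± 4.60 and 38.4 ± 5.80 TPM (log2 fold change -0.33). Ifngr1, the ligand-binding chain of the interferon-gamma receptor, was the most abundant, with 256 ± 35.8 and 290 ± 20.1 TPM. Irf4, a factor of lymphoid and dendritic cells, was under 1 TPM in every library, whereas Irf8 and Spi1, myeloid regulators, averaged 171 and 173 TPM.

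Genes of class II peptide processing were also tested, 8 of 10, with 0 past the adjusted threshold and 0 under 0.05 unadjusted by limma-trend. Their median log2 fold change was -0.14 against -0.09 for all genes, and 7 of 8 were negative against 69.1% of all genes. With size factors 4 of 8 were negative. Ctsl, a cathepsin that trims the invariant chain in thymic epithelium, was the exception, with 14.9, 15.2 and 15.6 in the sham libraries and 18.5, 18.3 and 20.6 TPM after hindlimb ischemia. Its groups did not overlap, in the direction taken by 1.65% of all genes tested, and its log2 fold change was 0.31 (SE 0.15, limma-trend adjusted p 0.874). Lgmn, an asparagine endopeptidase of the lysosome, had 2.65 ± 0.379 and 1.92 ± 0.147 TPM, also without overlap, where 6.68% of all genes tested lay lower in this way. Ctss, the cathepsin that cleaves the invariant chain in dendritic and B cells, had 102 ± 11.3 and 97.2 ± 10.1 TPM, and the lysosomal protease gene Ctsd was highest with 272 ± 28.6 and 234 ± 38.2 TPM. Cd83, which protects surface class II from turnover, had at most 2 reads. March1, the ubiquitin ligase gene of that turnover, was under 1 TPM in every library.

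The class I chain genes stood above every class II member. B2m, the shared light chain, averaged 3124 TPM, and the heavy chain genes H2-D1 and H2-K1 averaged 1040 and 626 TPM. H2-D1 was 46.8 to 69.3 times H2-Ab1 in the libraries. Of the 14 genes of this list, 0 were past the adjusted threshold and 0 under 0.05 unadjusted by limma-trend. Their median log2 fold change was -0.12, near 0 with size factors and -0.05 with quantile normalization. Negative values were found for 11 of 14, against 69.1% of all genes tested. With size factors they were 7 of 14 against 46.4%, and with quantile normalization 12 of 14 against 52.7%. H2-D1 had -0.22 (SE 0.16) and H2-K1 -0.17 (SE 0.14). B2m had 0.12, and -0.05 with quantile normalization. Nlrc5, the class I counterpart of Ciita, had 7.76 TPM where Ciita had 0.111. The costimulatory genes Cd86, Cd274 and Icosl averaged 1.21, 3.97 and 4.63 TPM and had log2 fold changes of 0.04, 0.12 and 0.04, while Cd80 and Cd40 were under 1 TPM in every library.

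The sorted population carried its defining transcripts, with Elane at 10692 TPM, Mpo at 10567 TPM and Cd34 at 248 TPM. Cd34 and Mpo had log2 fold changes of -0.34 and -0.21 with adjusted p of 0.874 by limma-trend, and Elane 0.01, or -0.11 with quantile normalization. Of 14 dendritic cell markers, 8 were under 1 TPM in every library, among them Zbtb46, Itgax, Xcr1 and Siglech, and Cd209a and Ccr9 were at 0 in part of the libraries. Their summed level was 158 to 166 in the sham libraries and 154 to 173 TPM after hindlimb ischemia, most of it from Bst2 (132 TPM), a gene also expressed outside dendritic cells. The other markers of that list that were tested were Flt3 at 7.82, Clec10a at 7.62, Tcf4 at 6.64 and Runx2 at 5.29 TPM. Cd74 averaged 8.23 TPM. Flt3 and Runx2 had log2 fold changes of -0.46 and -0.14. Of 12 B cell markers, 6 were under 1 TPM everywhere and Pax5, Ms4a1 and Fcer2a were at 0 in part of the libraries. Their sum was 448 to 522 in the sham libraries and 296 to 405 TPM after hindlimb ischemia, most of it from Ighm (385 ± 32.1 and 295 ± 55.9 TPM). Cd79a had 2.11 ± 0.568 and 0.756 ± 0.258 TPM, with a log2 fold change of -0.82 (SE 0.20, limma-trend adjusted p 0.816). The 9 B cell markers other than Ighm, Igkc and Cd79b summed to 5.80, 5.06 and 8.79 in the sham libraries and to 2.96, 3.89 and 3.85 TPM after hindlimb ischemia. Those sums did not overlap, but this subset was chosen after the values were seen. Of the 5 B cell markers tested, 3 lay lower without overlap, against 6.68% of all genes. By limma-trend 2 of the 5 were under 0.05 unadjusted and 0 past the adjusted threshold. Igkc varied most, with 49.4, 38.6 and 34.9 TPM in sham replicates 1 to 3 and 1.46, 49.7 and 2.87 TPM in the hindlimb ischemia replicates.

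Macrophage markers, 10 of 10 in the table, summed to 28.1 to 33.5 in the sham libraries and 26.2 to 33.5 TPM after hindlimb ischemia, with Mertk, Timd4 and Cd5l at 0 in part of the libraries. C1qb had 1.78 ± 0.0622 and 0.897 ± 0.212 TPM without overlap, where 6.68% of all genes tested lay lower in this way. Its sister genes C1qa (1.22 ± 0.531 and 1.16 ± 0.174 TPM) and C1qc (0.736 ± 0.414 and 0.720 ± 0.0924 TPM) overlapped. Vcam1 was highest at 13.5 TPM, and Cd163 had a log2 fold change of -0.28. The 8 monocyte markers, led by Ly6c2 at 5543 TPM, summed to 6260 to 7470 TPM and 6518 to 6820 TPM. The log2 fold change was -0.35 for Csf1r and 0.23 for Ccr2. Of 8 T and NK cell markers 6 were under 1 TPM everywhere, Lck was at 0.924 TPM, and their sum came almost wholly from Nkg7 at 847 TPM. The part of such cells in the class II values was not tested.

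The 8 genes most like the mean profile of the 6 tested members were ranked by Pearson r over the 6 libraries among 10525 genes with a mean of at least 5 TPM. They had r from 0.932 to 0.958, and a ranking among so many genes over 6 libraries gives high values by selection. The highest were 1700123O20Rik, with 48.9, 48.7 and 53.4 in the sham libraries and 48.7, 53.2 and 48.6 TPM after hindlimb ischemia, and the gene model Gm2904. Ccdc53 was the only other one not named as a gene model, and the remaining 5 were Gm8464, Gm4750, Gm7153, Gm5456 and Gm8682. All shared the high values of sham replicate 3 and hindlimb ischemia replicate 2 that H2-Aa and the mean profile showed.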

How the data were processed

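Per the file headers, the deposited table holds TPM values per library, and beside them a log2 fold change and an adjusted p-value computed by the authors. Each TPM column sums to 1000000. The submitters' processing notes name mm10. The sources used here do not name the aligner, counting tool, annotation or strand setting. The deposited log2 fold change ran against hindlimb ischemia over sham (Spearman -0.97 over genes of at least 1 TPM on average), so its sign was turned. A short list repeats 6 TPM columns, which were not used.

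TPM multiplied by GENCODE M21 exon length gave whole reads within 0.01 in all 6 libraries for 14675 genes (60.6%), 20456383 to 26710968 reads per library. For other named genes, all 7 members included, the smallest length that gave whole reads in all libraries was taken, so a multiple of those reads would be whole as well. A read on 1000 bases is worth 0.0404 to 0.0592 TPM.

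The 13787 genes that reached 1 TPM in 3 or more libraries were fitted on log2(TPM + 1) with limma-trend (limma 3.58.1, R 4.3.3, robust, no covariate, Benjamini-Hochberg over all genes). Alternatives were other scalings, pseudocounts, filters, no trend, a threshold of 0.2, the replicate block and leaving out each library.

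The members and lists were chosen with earlier results of these data known. Named genes are all members and, from each list, the 2 with the smallest unadjusted p and the 1 with the highest mean. H2-Ob, Rfxank, Nlrc5, Irf4, Irf8, Spi1, Ctss, March1, Cd83, Igkc, Clec10a, Tcf4 and marker genes at low level were named after their values were seen. The table gives March1, March8 and Adgre1 under other names, matched by gene ID. A B cell marker is not reported here and was left out of its list.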

Additional observations from a re-analysis of the deposited data

How the results depend on the processing

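The count of 0 members past the adjusted threshold was 0 under all alternatives run, including a threshold of 0.2. H2-Ab1 was under 0.05 unadjusted with quantile normalization (log2 fold change 0.24, p 0.0402, adjusted p 0.874 by limma) and with size factors (0.24, p 0.0364, adjusted p 0.853). Of all 13787 genes tested, 710 were under 0.05 unadjusted with quantile normalization, 302 of them higher after hindlimb ischemia. With size factors there were 700, of which 336 were higher. A call of 1 among 6 members is too few to set apart from these backgrounds. H2-DMa and H2-DMb1 were negative, and H2-Ab1 and H2-Eb1 positive, in each alternative that kept them, but their sizes moved. With size factors H2-DMa was -0.088 and H2-DMb1 -0.052. H2-Eb1 was 0.077 with a pseudocount of 5 and 0.41 with 0.1. With a library left out H2-DMa ran from -0.29 to -0.14, H2-DMb1 from -0.24 to -0.12 and H2-Ab1 from 0.081 to 0.21. H2-Eb1 passed the filter only without sham replicate 1, sham replicate 2 or hindlimb ischemia replicate 3. Its values there were 0.22, 0.14 and 0.35, from fits that kept every library in which it reached 1 TPM. Over all genes, 0 passed by limma-trend, 1 without the trend, 69 with the replicate block, and from 0 to 41 with a library left out: 41 without hindlimb ischemia replicate 1 and 1 without replicate 2 or replicate 3 of that group. Same-numbered libraries deviated together with r of 0.389, 0.182 and 0.076. Sham replicate 2 correlated best with hindlimb ischemia replicate 3 (0.383), while the remaining pairs of unlike number had r from -0.434 to -0.012. The labels state no pairing, so the numbers are not shown to pair the samples. Under the replicate block 0 members passed, with 0.409 the smallest adjusted p.

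Signs turned for small fold changes, and the cause was not tested. With quantile normalization these were Cd74 (0.023), B2m (-0.053), Elane (-0.11), H2-DMb2 (0.0071) and Vcam1 (0.077). With size factors they were Cd74 (0.024), H2-DMb2 (0.0027), Ly6c2 (0.067), Nkg7 (0.10) and Vcam1 (0.079). With a library left out, log2 fold changes ran from -0.30 to 0.16 for Cd74, -0.17 to 0.34 for H2-Aa, -0.017 to 0.31 for Cd274, -0.039 to 0.17 for Cd86, -0.059 to 0.12 for Elane, -0.053 to 0.17 for Icosl, -0.23 to 0.028 for Lck, -0.12 to 0.028 for Ly6c2, -0.082 to 0.08 for Nkg7 and -0.21 to 0.16 for Vcam1. H2-Aa and H2-Eb1 did not reach the filter of a mean of 5 TPM. Depth limits Ciita (1 to 26 reads), H2-Eb1 and H2-Aa most.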
